A study of Mus musculus with 24 samples.

Results

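The data described here are the histone H3 lysine 4 monomethylation (H3K4me1) libraries of a chromatin immunoprecipitation sequencing (ChIP-seq) series in N1E115 cells, a mouse neuroblastoma line. They are 4 of the 24 samples, taken by antibody and oxygen label: 2 libraries from cells kept at 4% O2 and 2 from cells kept at 20% O2. All 4 came from NOS1+ cells, that is, cells labelled as positive for neuronal nitric oxide synthase, grown for 3 days with 5% CO2 at ambient pressure. The comparison asks where H3K4me1 peaks lie, and how wide they are, at 4% against 20% O2. Per the labels all samples are this single line, chromatin was fixed and fragmented before precipitation, and libraries were made with the ThruPLEX kit. Whether the pair at each oxygen level stems from independent cultures is not labelled, and the spread between libraries may be technical. Libraries with the same replicate number shared a flow cell, so the 4% over 20% ratio is given for each replicate number as well. The deposited lists carry no read numbers and the sequencing depth behind each list is unknown. Depth and antibody recovery therefore cannot be told apart from the oxygen level when whole lists are compared. With 2 against 2 libraries the smallest p an exact two-sided permutation test can give is 0.333, so no comparison between libraries below can reach the usual significance threshold.

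H3K4me1 marks enhancers and the flanks of active promoters, while the centre of an active promoter carries trimethylation (H3K4me3) instead. KMT2C and KMT2D place most of the mark at enhancers, and the demethylase KDM1A (LSD1) removes it. Enhancers that are active also carry acetylation of H3 lysine 27 (H3K27ac), and broad H3K4me1 is common in and around genes that define a cell's identity. The labelled cell type was checked against marker genes. Within 10000 bp of the ends of Th, which encodes tyrosine hydroxylase of catecholamine synthesis, peaks covered 7536 and 4157 bp in the 4% libraries and 12332 and 10661 bp in the 20% libraries. All 7 noradrenergic markers were covered in every library except Isl1 in the second 4% library. Ptprc and Cd3e of leukocytes, Alb of liver, Ckm of muscle, Kdr of endothelium and Aqp4 of astrocytes had no covered base in any library. The windows of the glial marker Gfap and the endothelial marker Pecam1 were covered by 6546 and 7278 bp and by 5801 and 6481 bp in the 4% libraries. They held 16846 and 12246 bp and 14304 and 10509 bp in the 20% libraries, and such windows can include neighbouring genes.

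The sequences below are the 250 bases upstream of the annotated start of 4 genes on which the gene results turn. They are taken from RefSeq (GRCm38.p6) and printed 5′ to 3′ on the gene's strand. Car9 is a carbonic anhydrase and a standard target of the hypoxia-inducible factors, Hk2 is hexokinase 2 of glycolysis, Arnt encodes the partner subunit of those factors, and Mcm7 encodes a subunit of the replicative helicase. Capitals mark ACGTG or GCGTG on either strand (CACGT or CACGC when read on the other strand), the core of the hypoxia response element.
Car9, chr4:43506776-43507025, plus strand: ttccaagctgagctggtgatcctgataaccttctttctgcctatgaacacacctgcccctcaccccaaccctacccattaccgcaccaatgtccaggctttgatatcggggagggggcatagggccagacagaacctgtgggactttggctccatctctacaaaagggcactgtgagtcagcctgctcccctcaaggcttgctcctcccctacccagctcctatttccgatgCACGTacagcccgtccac
Hk2, chr6:82774455-82774704, minus strand: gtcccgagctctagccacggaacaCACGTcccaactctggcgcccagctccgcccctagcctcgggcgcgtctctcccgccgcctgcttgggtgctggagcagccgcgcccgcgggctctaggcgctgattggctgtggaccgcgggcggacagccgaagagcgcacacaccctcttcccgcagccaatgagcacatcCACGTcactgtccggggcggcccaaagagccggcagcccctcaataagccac
Arnt, chr3:95434140-95434389, plus strand: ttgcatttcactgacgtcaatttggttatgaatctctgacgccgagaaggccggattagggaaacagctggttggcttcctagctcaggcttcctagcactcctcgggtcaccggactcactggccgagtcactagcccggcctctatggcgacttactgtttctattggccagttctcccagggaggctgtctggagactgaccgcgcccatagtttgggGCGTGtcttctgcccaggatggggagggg
Mcm7, chr5:138171884-138172133, minus strand: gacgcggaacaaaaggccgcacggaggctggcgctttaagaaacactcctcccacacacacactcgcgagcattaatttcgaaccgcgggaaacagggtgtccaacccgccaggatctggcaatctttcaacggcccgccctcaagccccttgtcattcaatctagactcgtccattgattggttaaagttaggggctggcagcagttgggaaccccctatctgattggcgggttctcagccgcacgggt
The motif occurs once in Car9, 2 times in Hk2, once in Arnt and 0 times in Mcm7. It is common: 43.8% of the 17492 protein-coding genes with an annotated start hold at least 1 match in these 250 bases, as do 21 of the 26 members of the hypoxia list that have such a start. In all 4 libraries H3K4me1 peaks covered 0 of the 250 printed bases of each gene, and the peaks described for these genes lie farther out.

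Peaks at 4% O2 were narrower, and the ratio was lowest for the broad ones. The 4% libraries held 99749 and 117807 peaks, and the 20% libraries held 126503 and 124803. Their median widths were 385 and 346 bp at 4% O2 and 443 and 400 bp at 20% O2. Both 4% libraries lay below both 20% libraries in each measure. Peaks of at least 2000 bp, the width of broad enhancer domains, numbered 3930 and 3419 at 4% O2, against 11880 and 6111 at 20% O2. They held 11.5 and 9.81 Mb at 4% O2, against 40.4 and 18.5 Mb at 20% O2, ratios of 0.285 and 0.530 in replicates 1 and 2 (exact permutation p = 0.333, two-sided, n = 2 each). Peaks under 500 bp held 18.5 and 23.1 Mb at 4% O2 and 20.1 and 22.6 Mb at 20% O2, and here the groups overlapped. The widest single peak spanned 15157 and 14017 bp in the 4% libraries, and 31070 and 18979 bp in the 20% libraries. The first 20% library stood apart from the second, with 106 Mb covered in all against 81.8 Mb. Without it the log2 ratio of covered length was −0.39, against −0.59 with all 4 libraries. Covered length was 62.4 ± 1.96 Mb at 4% O2 and 93.8 ± 17.1 Mb at 20% O2 (SD, n = 2 each).

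**Figure D1:**
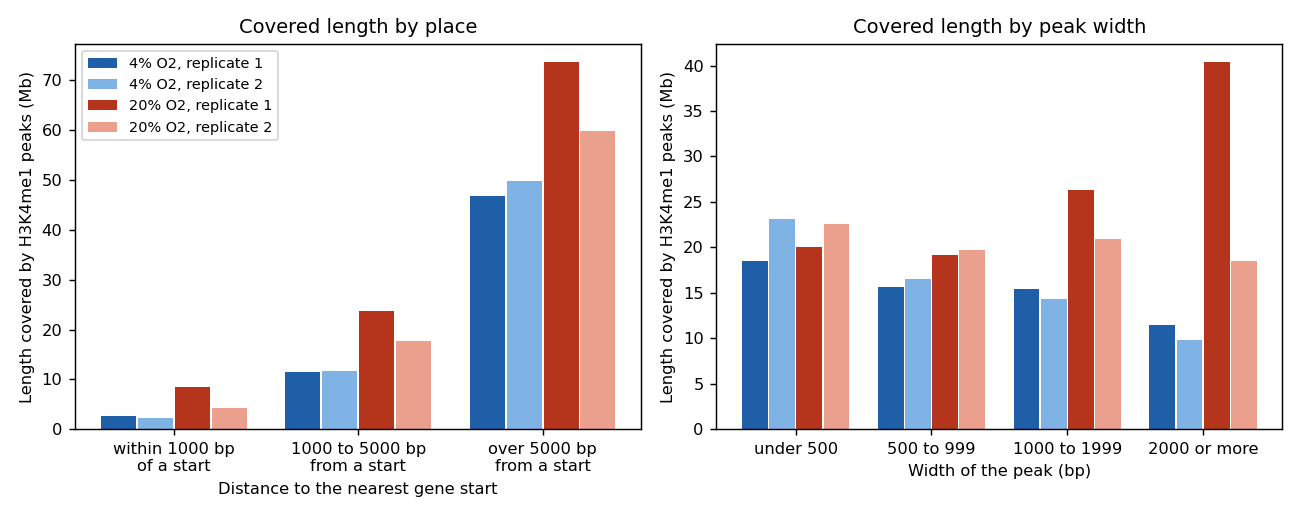
Length covered by H3K4me1 peaks (Mb, vertical axes) in each of the 4 libraries (bars), by distance to the nearest gene start (left) and by peak width (right). Both 4% libraries lie below both 20% libraries at every distance, while for peaks under 500 bp the libraries overlap between 18.5 and 23.1 Mb.

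The same places were compared within each replicate number. Where peaks of the 2 oxygen levels overlapped they were joined into regions, 54138 for replicate 1 and 60831 for replicate 2. The median ratio of covered bp, 4% over 20%, was 0.705 for replicate 1 and 0.857 for replicate 2, and the 4% peaks covered less in 81.9% and 67.5% of the regions. In 15123 and 11807 of them a single 20% peak met 2 or more separate 4% peaks, and the opposite split was found in 3411 and 5348. In total, regions with peaks at both oxygen levels differed by −24.2 and −9.79 Mb, 4% minus 20% O2. Regions with a 4% peak alone held 3.94 and 8.96 Mb, and regions with a 20% peak alone held 24.6 and 17.1 Mb.

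The strongest peaks were shared. The authors' score, a −log10 value used here only to rank peaks within a list, divided each list into 10 equal classes. In the top class, 99.8% and 98.9% of 4% peaks met a peak of the 20% library with the same replicate number, and 98.3% and 98.1% of 20% peaks met a 4% peak. In the lowest class these shares were 72.8% and 56.9% of 4% peaks, and 23.2% and 38.0% of 20% peaks. Widths also differed at the top: the median width there was 1504 and 1288 bp at 4% O2, against 2427 and 1663 bp at 20% O2. In the lowest class it was 240 and 240 bp at 4% O2 and 231 and 247 bp at 20% O2, and the groups overlapped. Agreement between lists, as shared over joint covered length, was 0.417 for the pair of 4% libraries and 0.482 for the pair of 20% libraries. It was 0.451 and 0.459 between oxygen levels within replicates 1 and 2, and 0.428 and 0.388 between libraries that differed in both. Libraries with the same replicate number thus overlapped about as much as libraries at the same oxygen level.

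With peaks as deposited, H3K4me1 was lower at 4% O2 at every distance from gene starts, with the lowest ratios close to them. Each covered base was placed by its distance to the nearest start of a protein-coding or long non-coding RNA gene: the promoter core within 1000 bp, the promoter flank from 1000 to 5000 bp, and distal sequence beyond. The core held 2.66 and 2.29 Mb at 4% O2, against 8.49 and 4.2 Mb at 20% O2. The flank held 11.5 and 11.7 Mb at 4% O2, against 23.8 and 17.6 Mb at 20% O2. Distal sequence held 46.9 and 49.8 Mb at 4% O2, against 73.6 and 59.9 Mb at 20% O2. The ratios were 0.313 and 0.545 for the core, 0.483 and 0.665 for the flank, and 0.637 and 0.831 for distal sequence. As a share of covered length, flanks took 18.6 ± 0.310% at 4% O2 and 22.0 ± 0.649% at 20% O2 (SD, n = 2 each; exact permutation p = 0.333). Distal sequence took 77.4 ± 0.853% at 4% O2 and 71.4 ± 2.69% at 20% O2 (exact permutation p = 0.333, n = 2 each). The groups did not overlap in either share. When every list was trimmed to its highest-scoring peaks at one common covered length, an alternative added after the data were seen, the flank share differed by −2.86 and the distal share by 4.22 percentage points. Shares thus moved with the amount called: at 61.0 Mb the first 20% library placed 5.84% of its length in the core, against 8.02% of its 106 Mb as deposited. At that common total the distal length itself was therefore higher at 4% O2, so the direction in distal sequence depends on the scale.

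**Figure D2:**
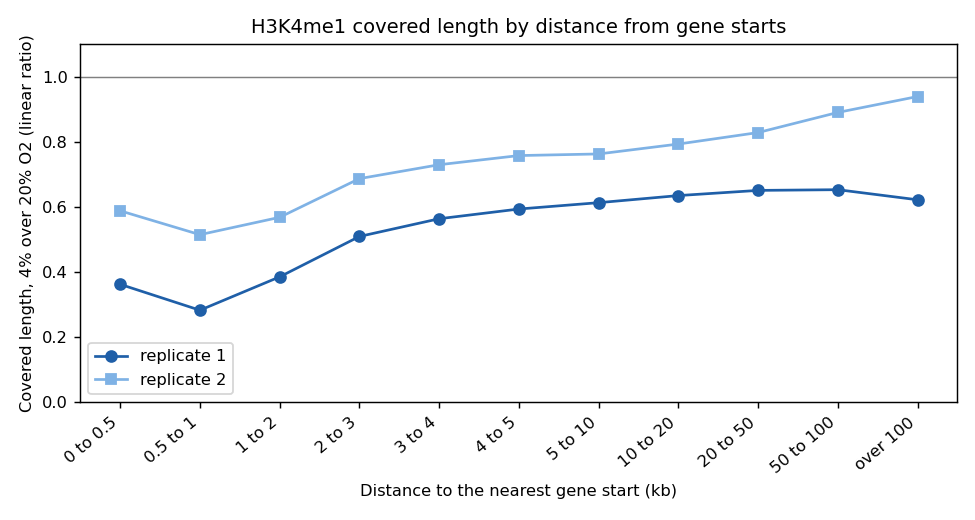
Ratio of H3K4me1 covered length, 4% over 20% O2 (vertical axis, linear), by distance to the nearest gene start (horizontal axis, kb), for each replicate number (lines). Both lines are lowest at 500 to 1000 bp, at 0.282 and 0.514, and every point is under 1.

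In finer steps the ratio was 0.282 and 0.514 in replicates 1 and 2 at 500 to 1000 bp from a start, and 0.653 and 0.890 at 50000 to 100000 bp, as the plot of ratios by distance shows. Core peaks numbered 4989 and 4630 at 4% O2, against 12876 and 7255 at 20% O2. Distal peaks numbered 74539 and 89849 at 4% O2 and 84673 and 89352 at 20% O2, with the groups overlapping. Chromosomes did not differ in direction: the ratio was under 1 on all 20 that were covered, between 0.470 (X) and 0.616 (15) in replicate 1 and between 0.717 (17) and 0.832 (18) in replicate 2.

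Around active starts, the shoulders of H3K4me1 were lower at 4% O2 and lay farther from the start. The plot of peaks around starts uses 8630 starts of protein-coding genes with an H3K4me3 peak over the start in all 4 H3K4me3 libraries. Upstream, the highest share of starts with an H3K4me1 peak was 8.38% at 1600 bp and 7.91% at 1700 bp from the start in the 4% libraries. In the 20% libraries it was 33.4% at 1000 bp and 14.8% at 1500 bp. Downstream, the highest share was 13.8% at 1900 bp and 14.0% at 2200 bp in the 4% libraries, and 47.0% at 1100 bp and 26.7% at 1500 bp in the 20% libraries. The first 20% library had the highest and closest shoulders, and the second 20% library still exceeded both 4% libraries. At the start itself the share was 0.232% and 0.174% at 4% O2, against 2.98% and 0.545% at 20% O2. With lists trimmed to a common covered length, the shoulders of the 4% libraries peaked at 8.38% and 7.51% upstream, 1600 and 1800 bp out. Those of the 20% libraries peaked at 11.1% and 9.80%, 1300 and 1500 bp out. Downstream the trimmed 4% lists peaked at 13.8% and 13.3%, 1900 and 2200 bp out, and the trimmed 20% lists at 20.6% and 18.5%, 1700 and 1800 bp out, so the heights moved closer while the order of the distances held. At the 9304 starts with no H3K4me3 peak within 1000 bp in any library no shoulder was seen, and the share at the start was 1.16 ± 0.0988% at 4% O2 and 2.01 ± 0.0152% at 20% O2 (SD, n = 2 each).

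**Figure D3:**
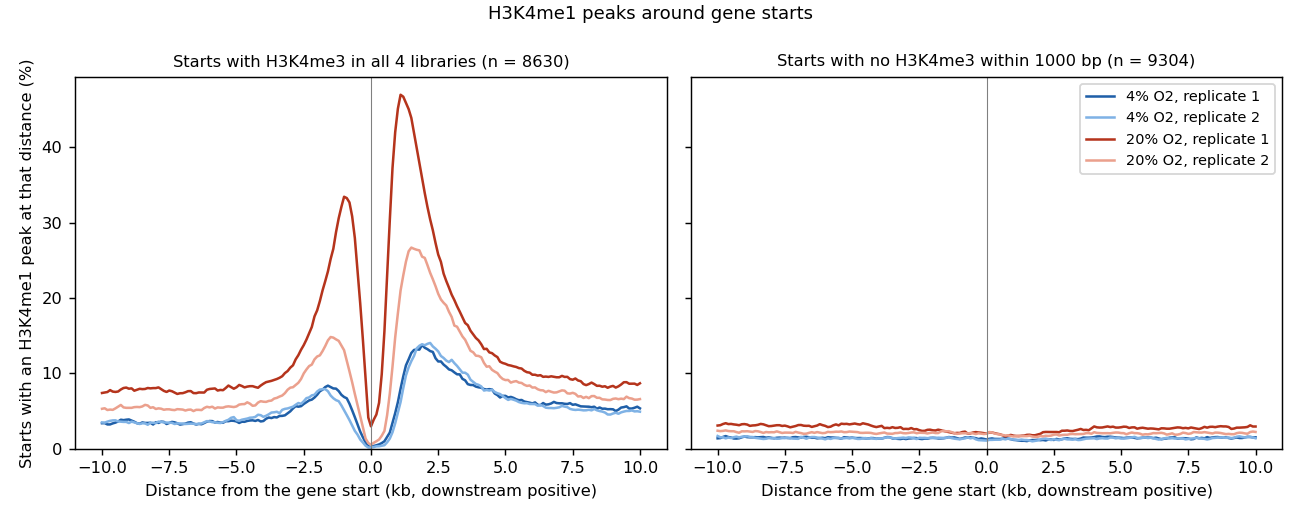
Share of gene starts with an H3K4me1 peak (vertical axis, percent) at each distance from the start (horizontal axis, kb), for 8630 starts with H3K4me3 (left) and 9304 without (right), 1 line per library. On the left the 4% lines reach at most 13.8% and 14.0%, below the 20% lines at 47.0% and 26.7%, and their maxima lie farther from the start.

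The overlap with the other marks was set out for libraries of the same oxygen level and replicate number. H3K4me1 under H3K4me3 peaks came to 5.23 and 4.97 Mb at 4% O2, against 23.8 and 9.12 Mb at 20% O2, ratios of 0.220 and 0.545. Under H3K27ac it came to 24.2 and 28.3 Mb at 4% O2, against 41.5 and 33.3 Mb at 20% O2. Under the islands of H3K27me3, the Polycomb mark, there was little H3K4me1 in any library, 0.383 and 0.271 Mb at 4% O2 and 1.15 and 0.889 Mb at 20% O2. The 4% libraries lay below the 20% libraries under all of these marks, as they did in total covered length. As a share of H3K4me1 length, that under H3K27ac was 39.6% and 44.3% at 4% O2 and 39.2% and 40.7% at 20% O2. The groups overlapped in this share. That under H3K4me3 was 8.56% and 7.80%, against 22.5% and 11.2%, and that under H3K27me3 0.628% and 0.425%, against 1.09% and 1.09%. Under H3K36me3 the share was higher at 4% O2, 31.8% and 30.9%, against 26.6% and 28.9% at 20% O2. For the marks themselves, covered length gave 4% over 20% ratios of 0.955 and 1.15 for H3K27ac, 0.858 and 1.09 for H3K4me3, 0.939 and 0.948 for H3K36me3, and 1.16 and 0.959 for H3K27me3. Whether H3K4me1 differs from these marks was not tested. For the other marks in replicate 1 the flow cell differed with the oxygen level, and the 2 cannot be told apart there.

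Fixed sets of regions remove the difference between the other marks' lists. At 16040 distal H3K27ac regions found in all 4 H3K27ac libraries, candidate active enhancers, H3K4me1 peaks touched 80.8% and 76.5% at 4% O2, against 93.8% and 85.0% at 20% O2. They covered 53.8% and 48.7% of the length of these regions at 4% O2, against 79.5% and 60.9% at 20% O2 (exact permutation p = 0.333, n = 2 each). Most of these regions thus kept some H3K4me1 in each library, over less of their length in both 4% libraries. The 4% over 20% ratios of this cover, 0.677 and 0.799, were not below those of all covered length, 0.576 and 0.780. Whether they differ was not tested. Next to 23328 H3K4me3 regions found in all 4 H3K4me3 libraries, peaks covered 18.4% and 17.6% of the adjoining 500 bp at 4% O2, against 33.0% and 25.4% at 20% O2. From 3000 to 5000 bp out the cover was 6.56% and 6.80% at 4% O2, against 11.4% and 8.87% at 20% O2.

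Peaks of all 4 libraries merged into 153738 regions. Of these, 34769 had a peak in every library, 1241 in both 4% libraries and neither 20% library (4%-only, 0.807% of all regions), and 9560 in both 20% libraries and neither 4% library (20%-only, 6.22%). The 4%-only share was 0.261% of core, 0.524% of flank and 0.964% of distal regions, while the 20%-only share was 10.7%, 8.65% and 4.90%. The 2 kinds of region thus ran in opposite order with distance from gene starts. The balance between them depends on the scale. With lists trimmed to a common covered length there were 8182 4%-only and 433 20%-only regions. That trim keeps many narrow 4% peaks and fewer, wider 20% peaks, and what sets these counts was not tested. The order by distance held there too, with 4%-only shares of 5.22%, 6.01% and 8.28% and 20%-only shares of 1.26%, 0.772% and 0.238% for core, flank and distal regions. With 3 libraries the rule asks for less, and the counts without the first and second 4% library and without the first and second 20% library were 17541, 9212, 5164 and 2828 for 4%-only and 16625, 17299, 35002 and 46809 for 20%-only regions.

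The 2 kinds of region differed in how often they carried H3K4me3, and 20%-only regions carried H3K27ac about as often as all regions. H3K4me3 peaks touched 1.29% and 2.26% of the 4%-only regions in the 4% libraries and 1.69% and 1.37% in the 20% libraries. They touched 41.6% and 46.0% of the 20%-only regions in the 4% libraries and 45.3% and 45.1% in the 20% libraries, against 24.3% to 27.8% of all 153738 regions. H3K27ac touched 7.01% and 17.0% of the 4%-only regions at 4% O2 and 4.11% and 6.85% at 20% O2. For 20%-only regions it was 30.6% and 41.4% at 4% O2 and 31.5% and 38.7% at 20% O2, against 29.4% and 37.6% at 4% O2 and 29.4% and 32.9% at 20% O2 for all 153738 regions. In the 34769 regions with a peak in every library, median covered length was 1005 and 987 bp at 4% O2, against 1644 and 1291 bp at 20% O2. There 16284 regions (46.8%) had less covered length in both 4% libraries than in both 20% libraries, and 827 (2.38%) had more.

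The 10 highest-ranked 4%-only regions lay 11407 to 124254 bp from the nearest start. The first was chr11:85477132-85477704, inside the record of Bcas3, with 446 and 573 bp covered at 4% O2 and none of the other marks in any library. Others lay inside Tle4, a Groucho-family corepressor, Fkbp5, a co-chaperone of steroid receptors, and Map2k4, a stress-activated kinase. The region chr2:160536381-160536959, whose nearest start is 42923 bp away and whose nearest protein-coding gene is Top1, carried H3K27ac over 255 and 579 bp at 4% O2 and 0 bp in both 20% libraries. H3K27ac at 4% O2 alone was seen at this one of the 10. Of the 10 highest-ranked 20%-only regions, 8 lay within 10000 bp of a start. In replicates 1 and 2 at 20% O2, the region near Gtf3a, the 5S RNA transcription factor, covered 1599 and 920 bp. That in Sephs1, a selenophosphate synthetase homologue, covered 1255 and 843 bp, and that in the sodium channel gene Scn4a covered 1498 and 728 bp. Each of these 3 carried H3K4me3 peaks in all 4 libraries.

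Genes were scored by the bp that H3K4me1 peaks covered within 10000 bp of either end of the gene record, for 21887 protein-coding genes. In 8897 genes (40.6%) both 4% libraries had less than both 20% libraries, and in 38 (0.174%) both had more. A gene with no peak near it cannot be lower, and of the 14091 genes covered in at least 1 library 63.1% were lower and 0.27% higher. The median log2 ratio over the 11200 genes covered in at least 1 library of each oxygen level was −1.15. This balance moved with the scale: with lists trimmed to a common covered length the median was −0.26, with 2506 genes lower and 1353 higher at 4% O2. These are 21.2% and 11.4% of the 11842 genes covered in those lists. The trim changes which peaks are kept as well as the total, and what sets the balance was not tested. List medians below are therefore set beside the median of all genes. Single genes are mostly given as covered bp. Lying lower in both 4% libraries does not set a gene apart, since 63.1% of covered genes did so. The 4%-only rule, at least 200 bp in both 4% libraries and in neither 20% library, took 6 genes (0.0274%), and the opposite 20%-only rule took 1389 (6.35%, or 9.86% of covered genes). Trimmed to a common covered length, the lists gave 502 4%-only and 118 20%-only genes. Without the first and second 4% library and the first and second 20% library the counts were 50, 46, 116 and 19 for 4%-only genes and 2424, 2359, 1622 and 2752 for 20%-only genes. Of the 1389 20%-only genes, 75.1% had H3K4me3 near a gene end in all 4 libraries, close to the 76.6% of all covered genes. Among covered genes, 66.7% of those with such H3K4me3 and 49.3% of those with none had less H3K4me1 in both 4% libraries, with median log2 ratios of −1.19 and −0.96. The 20%-only genes with an annotated start had a median of 13 CpG dinucleotides in the 250 upstream bases, against 14 for covered genes.

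Few genes had more H3K4me1 at 4% O2, and their excess was small in bp. Hk2, the hexokinase induced in low oxygen in many cells, was covered by 6910 and 5641 bp in the 4% libraries, against 5036 and 3927 bp in the 20% libraries, a log2 ratio of 0.49. Its broadest peak lay downstream of the start in every library, 7288 to 10769 and 7298 to 10677 bp downstream at 4% O2 and 8782 to 13078 and 7749 to 11308 bp downstream at 20% O2. Palmd, the palmdelphin gene, had 1588 and 2064 bp at 4% O2, against 473 and 587 bp at 20% O2. Rab22a, a GTPase of endosomes, had 6635 and 6726 bp at 4% O2, against 5123 and 5953 bp at 20% O2. These 3 genes were picked by the gap between the groups, so that the groups do not overlap follows from the choice. The other 7 of the 10 genes with the widest separation were Fbxo25, Olfr33, Rph3al, Samd15, Trank1 and the neighbours Eif3j2 and Gm3650, which share their peaks. All 10 stayed higher at 4% O2 with lists trimmed to a common covered length, and 9 of 10 with equal numbers of peaks. The trim to a common length kept 99749 and 108016 peaks of the 4% lists, but 29769 and 63596 of the 20% lists. It thus removed mostly 20% peaks, and genes picked as higher at 4% O2 could hardly turn under it.

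The 6 4%-only genes rest on narrow peaks, most of them in other genes. Car9, the only hypoxia gene among them, had 233 and 266 bp at 4% O2 and 0 bp in both 20% libraries. Its peak in the first 4% library, chr4:43521851-43522083, and that in the second, chr4:43520485-43520750, did not overlap each other. Both lay inside the record of Tpm2, a tropomyosin gene, 8121 and 6755 bp beyond the Car9 record. No H3K4me1 peak of any library lay within 10000 bp of the Car9 start printed above. The neighbours Mtfmt and Spg21 share their peaks at 4% O2, 937 and 205 bp inside Spg21, and Mtfmt also had a peak of 187 bp in the first 20% library, 143 bp outside its record. Peaks near Timp4 lie in Syn2 and those near Gm46866 in Glis1, and of the 6 only Spg21 and Zfp971 held their peaks within their own record.

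The hypoxia list kept more of its H3K4me1 than genes did in general, and its own direction depended on the scale. Its median log2 ratio was −0.53, against −1.15 for all genes, and turned to 0.09, against −0.26, with lists trimmed to a common covered length. Of its 31 covered members 9 were lower in both 4% libraries (29.0%, against 63.1% of covered genes) and 1, Car9, was higher. With trimmed lists these counts turned to 3 lower and 9 higher, 9.68% and 29.0% of covered members, against 21.2% and 11.4% of covered genes. Vegfa, the angiogenic growth factor, had 4988 and 3092 bp at 4% O2, against 10795 and 7725 bp at 20% O2. Egln3, a prolyl hydroxylase that marks the hypoxia-inducible factors for degradation, had 7216 and 8769 bp at 4% O2, against 11720 and 12315 bp at 20% O2. The groups did not overlap in either gene, as in 63.1% of covered genes. The log2 ratio of Vegfa, −1.20, was close to the median of −1.15 for all genes, and that of Egln3, −0.59, was a smaller drop. Hif1a, the oxygen-regulated subunit, had 5791 and 4321 bp at 4% O2 and 12119 and 4689 bp at 20% O2, a difference that rests mostly on the first 20% library. Arnt was the 20%-only member, with 0 bp in both 4% libraries, against 1247 and 681 bp at 20% O2. Its peaks lay 552 to 1798 bp downstream of the printed start in the first 20% library, and 918 to 1398 and 2139 to 2338 bp downstream in the second. Fam162a, Higd1a and Kdm3a had log2 ratios of 0.19, 0.23 and 0.55, with overlapping groups.

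In the glycolysis and glucose uptake list, 15 of 25 members were lower in both 4% libraries (60.0%, against 63.1% of covered genes) and Hk2 was higher. Trimmed lists gave 5 lower and 3 higher, 20.8% and 12.5% of covered members, close to the 21.2% and 11.4% of covered genes. The list's median of −0.98 lay close to that of all genes, and was −0.20 after trimming. Pfkfb4, which makes the activator of phosphofructokinase, had 501 and 1171 bp at 4% O2, against 5388 and 4153 bp at 20% O2. Eno2, neuronal enolase, had 1465 and 1858 bp at 4% O2, against 6445 and 5128 bp at 20% O2. In both the 20% libraries exceeded the 4% libraries by more than the spread within either group. Slc2a1, the main glucose transporter, had 10312 and 7128 bp at 4% O2 and 9073 and 4509 bp at 20% O2, with overlapping groups.

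Genes for the enzymes that write and erase H3K4 methylation were among the lists with low medians. For the methyltransferases and their partners, 15 of 21 were lower in both 4% libraries (71.4% of covered members) and 0 higher, with a median log2 ratio of −1.60. Of all covered genes 63.1% were lower and 0.27% higher, with a median of −1.15, so the share lower was not far from that of genes in general. With trimmed lists 3 of 21 were lower (15.8% of covered members, against 21.2% of covered genes) and the median was −0.38. Kmt2d, a main writer of H3K4me1, had 3035 and 2318 bp at 4% O2, against 9436 and 5703 bp at 20% O2. Wdr5, a core subunit of these complexes, had 390 and 421 bp at 4% O2, against 3392 and 1501 bp at 20% O2. Cxxc1, which brings the SETD1 complexes to CpG islands, was 20%-only, with 0 bp at 4% O2 against 720 and 207 bp at 20% O2. Kmt2c had 1127 and 280 bp at 4% O2 and 2924 and 575 bp at 20% O2, and its groups overlapped. For the demethylases and their partners, 9 of 14 were lower (9 of 12 covered members) and 0 higher, with a median of −1.49. With trimmed lists 1 of 14 was lower (8.33% of covered members, against 21.2% of covered genes) and the median turned to 0.21. Kdm5a, a demethylase of H3K4me3, had 823 and 217 bp at 4% O2, against 3373 and 1063 bp at 20% O2. Hdac2, a deacetylase that acts with KDM1A, had 0 bp in both 4% libraries, against 859 and 218 bp at 20% O2. Kdm1a itself overlapped between groups, at 59 and 1206 bp at 4% O2 and 797 and 1708 bp at 20% O2.

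The lists named for identity and for function differed in how far they lay from all genes. In the noradrenergic neuroblastoma list, 19 of 26 members were lower in both 4% libraries (73.1%, against 63.1% of covered genes) and 0 higher. The median log2 ratio of this list was −0.91. With trimmed lists 10 were lower and 2 higher, with a median of −0.29. Dbh, which makes noradrenaline, had 4066 and 4201 bp at 4% O2, against 9915 and 7477 bp at 20% O2. Each library kept peaks near this gene, over less length in the 4% libraries. In the nitric oxide and cGMP list 14 of 24 were lower (63.6% of covered members), and its median of −0.75 turned to 0.03 with trimmed lists. Those gave 5 lower and 2 higher, 26.3% and 10.5% of covered members. Nos1, for which the cells are labelled, had 0 bp in both 4% libraries and 0 and 199 bp in the 20% libraries. Ass1, which regenerates arginine for nitric oxide synthesis, had 11890 and 8601 bp at 4% O2, against 19197 and 18493 bp at 20% O2. Its log2 ratio of −0.88 was a smaller drop than the median of −1.15 for all genes. Dynll1, a dynein light chain that binds NOS1, was 20%-only, with 0 and 187 bp at 4% O2, against 1261 and 656 bp at 20% O2. Neuronal and synaptic genes were lower for 10 of 25 members, 43.5% of the 23 covered ones, against 63.1% of covered genes. With trimmed lists 5 were lower and 3 higher, 21.7% and 13.0% of covered members, close to all covered genes. Mesenchymal genes were lower for 8 of 21 members, 57.1% of covered ones, and with trimmed lists 1 was lower and 1 higher, each 7.69% of covered members. Maml2, Twist2 and Sox9 were 20%-only as deposited.

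With peaks as deposited, the largest shares of lower genes were in the mitochondrial and cell cycle lists, 90.9% and 87.5% of covered members. Of 24 genes for the cell cycle and DNA replication, 21 were lower in both 4% libraries (87.5%, against 63.1% of covered genes), 0 were higher and 6 were 20%-only (25%, against 9.86% of covered genes). Mcm7 had 0 bp in both 4% libraries, against 1362 and 1425 bp at 20% O2, and the peaks nearest its printed start lay 1281 to 1977 bp downstream in the first 20% library and 1752 to 2318 bp downstream in the second. Aurka, a mitotic kinase, had 0 bp in both 4% libraries, against 2737 and 1266 bp at 20% O2. The other 4 were Ccna2, Mcm4, Plk1 and Mcm5, with 0 bp in both 4% libraries and 200 to 2599 bp at 20% O2. Of 24 mitochondrial respiration genes, 20 were lower and 5 were 20%-only: Ndufb8, Uqcrc2, Tfam, Uqcrfs1 and Ndufv1. Tfam, which maintains mitochondrial DNA, had 0 bp in both 4% libraries, against 1647 and 587 bp at 20% O2. The list medians were −1.39 for the cell cycle and −1.66 for respiration, and stayed below that of all genes with trimmed lists, at −0.90 and −0.80. The counts depended more on the scale: trimmed lists gave 9 lower and 1 higher cell cycle genes and 4 lower and 2 higher respiration genes, 42.9% and 20.0% lower among covered members, against 10 of the 25 covered noradrenergic members and 21.2% of covered genes. Housekeeping genes were lower for 12 of 20 members (60.0%, against 63.1% of covered genes). With trimmed lists 1 was lower, 5.56% of covered members, against 21.2% of covered genes. Their median was −1.17, close to that of all genes, and Gusb was 20%-only. With trimmed lists 1 of the 24 list members that were 20%-only, Uqcrc2, was higher at 4% O2, 2 stayed lower (Tfam and Mcm7) and 21 overlapped between groups.

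**Figure D4:**
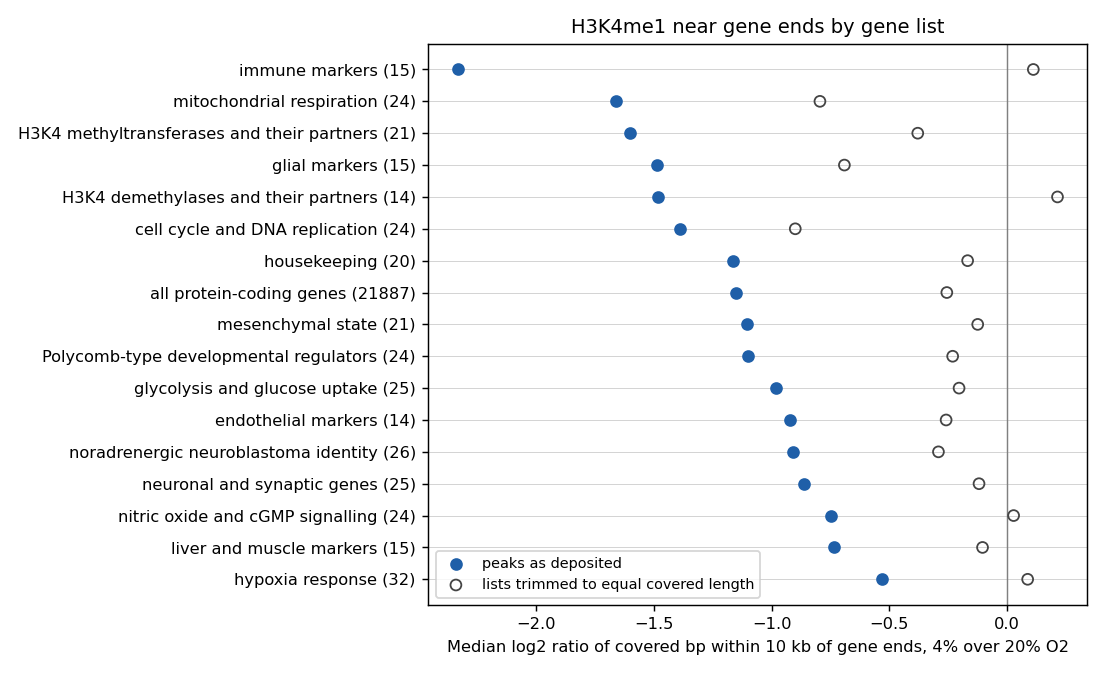
Median log2 ratio of H3K4me1 covered bp near gene ends, 4% over 20% O2 (horizontal axis), for each gene list (rows, number of members in brackets) with peaks as deposited (filled) and with lists trimmed to a common covered length (open). All filled points lie below 0 and the hypoxia list is highest at −0.53, while 4 open points lie above 0, those of the hypoxia, nitric oxide, H3K4 demethylase and immune lists.

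Markers of other cell types showed fewer covered genes and gave medians from few members. Lower in both 4% libraries were 7 of 15 glial, 5 of 15 immune, 5 of 14 endothelial and 5 of 15 liver and muscle genes, with 0 higher in each list. Among covered members these are 70.0%, 71.4%, 71.4% and 62.5%, against 63.1% of covered genes lower and 0.27% higher. With trimmed lists 1 glial, 0 immune, 1 endothelial and 1 liver or muscle gene were lower, and 1 glial and 1 endothelial gene were higher. Of all covered genes 21.2% were lower and 11.4% higher in those lists. The immune median of −2.33 rests on 5 genes and turned to 0.11 with trimmed lists. Aldh1l1 of astrocytes, Lyz2 of myeloid cells and Apoa2 of liver were 20%-only. Summed over the immune list, peaks covered 3561 and 1866 bp at 4% O2 and 12251 and 8376 bp at 20% O2, the lowest sums of any list. Polycomb-type developmental regulators were lower for 5 of 24 members and for 1 with trimmed lists, and 14 of the 24 had no peak near them in any library. Foxa1 was 20%-only, with 0 bp in both 4% libraries, against 238 and 235 bp at 20% O2.

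The genes with the widest separation in the other direction were Smarcd1, Fam83a, Tspan18, Cotl1, Tgfbi, Asic4, Kif18b, Lgi4, Flrt1 and Dazap1. Lgi4, a secreted protein of glia, had 900 and 1929 bp at 4% O2, against 8618 and 8730 bp at 20% O2. Tgfbi, an extracellular matrix protein induced by TGF-beta, had 4747 and 4941 bp at 4% O2, against 15433 and 12120 bp at 20% O2. Smarcd1, a subunit of the BAF chromatin remodelling complex, had 5702 and 5770 bp at 4% O2, against 13226 and 13612 bp at 20% O2. These 10 were picked by the gap between the groups, so a difference beyond the spread within them follows from the choice. With lists trimmed to a common covered length 9 of the 10 stayed lower at 4% O2, and Dazap1 overlapped between groups.

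**Figure D5:**
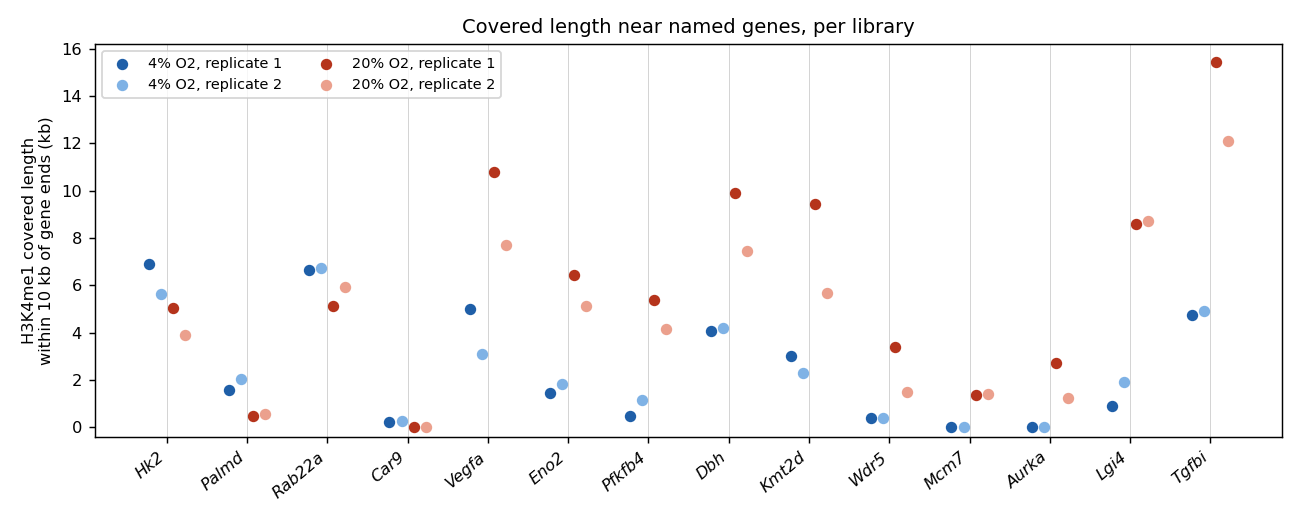
H3K4me1 covered length within 10 kb of gene ends (vertical axis, kb) for 14 genes discussed in the text, 1 point per library. In Hk2, Palmd, Rab22a and Car9 both 4% points lie above both 20% points, and in the other genes shown, some of them chosen after their values were seen, below them.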

How the data were processed

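Peaks were compared from the deposited interval lists, 1 per H3K4me1 library. Per the submitters' processing notes reads were aligned to mm10 with BWA and treated with Picard, and MACS2 and SICER were used; the file headers of the H3K4me1 lists name MACS2 and a separate call for each library. Versions are not given in the sources used here. The authors' score per peak is a −log10 value, read as −log10 q; it was used for ranking inside a list and for a minimum of 5. Positions are other deposited values, used to compute covered bp and widths. For the second libraries the intervals were identified by peak names and scores shared with those libraries' own summit lists. H3K36me3 and H3K27me3 islands came from SICER lists, whose count or score column was not used. Covered bp was summed over merged peaks on chromosomes 1 to 19, X and Y. Peaks counted as overlapping from 1 bp. Gene starts and records came from RefSeq (GRCm38.p6): 27025 of 34614 protein-coding and long non-coding genes had an annotated start, and for the others both ends of the record were used. Python 3.11.15, numpy 2.4.6, pandas 2.3.3 and scipy 1.17.1 were used. Interval arithmetic and the calling of regions were tested on simulated intervals.

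The gene groups and the members were chosen with earlier results of these data known. All 339 entries of the 16 lists matched a gene. Named genes were the 4%-only and 20%-only members of each list, at most 6 per list and direction, and the 10 genes per direction for which the closest 4% and 20% values lay farthest apart. Named regions were the 10 per direction with the highest lower rank of their 2 libraries. Genes named in addition were chosen after their values were seen, and some items the rule takes are not reported here. Libraries with the same replicate number were paired because they share a flow cell, per the file headers, and an input number; lanes differed between oxygen levels within each pair. Depth is unknown, and no interval for counting error can be given. Alternatives were each library left out, equal numbers of highest-scoring peaks, a score minimum, other windows, overlaps and gaps, autosomes only and a replicate block. Equal covered length and both gene ends as starts were added after the data were seen.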

Additional observations from a re-analysis of the deposited data

How the results depend on the processing

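Of 65 alternatives for the 7 results with a direction, 64 kept it. Many of these could not do otherwise: the groups did not overlap in any of the 7. Leaving out 1 library or pairing by replicate number therefore could not turn a direction. Of 52 alternatives for counts and overlap shares, 25 stayed within 1.5 times (counts) or the spread between replicate numbers (shares). For the shares, leaving out 1 library could not exceed that spread. The 1 reversed direction was the number of peaks at equal covered length, chosen after the data were seen. Its log2 ratio was 1.15, against −0.21, which follows from keeping wider peaks at 20% O2. The same setting gave 8182 4%-only and 433 20%-only regions, and 502 4%-only and 118 20%-only genes. Leaving out 1 library gave 2828 to 17541 4%-only regions, 16625 to 46809 20%-only regions, 19 to 116 4%-only genes and 1622 to 2752 20%-only genes; fewer libraries make the rule looser. A score of at least 5 gave 700 4%-only regions and 11 4%-only genes. Equal numbers of peaks gave 6231 20%-only regions and 17 4%-only genes. Merging gaps up to 500 bp gave 587 4%-only and 5577 20%-only regions. Asking for 50% overlap gave 70.9% of 4% peaks and 38.1% of 20% peaks overlapped, against 80.0% and 55.2%. What moved the counts and shares was not tested for any setting. With the replicate block, the log2 ratio of covered length was −0.58 (exact p = 0.5, the smallest for 2 pairs) and the flank share differed by −3.42 percentage points. The block changed no direction, and with groups that do not overlap it could not. Unknown depth limits every comparison of totals.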

Other observations

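The widest merged H3K4me1 regions were broken into more peaks at 4% O2. All 10 had more peaks, and 10 had less covered length, at 4% than at 20% O2 within both replicate numbers, and in 6 the peak numbers of the groups did not overlap. These 10 regions were chosen by width after the data were seen, and width was not independent of the 20% libraries, which held the widest peaks. The widest spanned 38964 bp over Frmd4a, a scaffold protein of epithelial polarity. It was covered by 33014 and 35078 bp in 17 and 13 peaks in the 4% libraries, against 38727 and 36835 bp in 3 and 7 peaks in the 20% libraries. The region over Plxnd1, a semaphorin receptor, spanned 37407 bp, with 32201 and 29547 bp in 23 and 21 peaks at 4% O2, against 36821 and 32628 bp in 6 and 14 peaks at 20% O2. The region over Slit3, an axon guidance ligand, held 25822 and 26611 bp in 10 and 7 peaks at 4% O2, against 28456 and 27834 bp in 2 and 4 peaks at 20% O2. The region over Pfkp, the platelet-type phosphofructokinase, held 19799 and 12960 bp in 9 and 20 peaks at 4% O2 and 23096 and 17653 bp in 3 and 17 peaks at 20% O2, and its groups overlapped in both measures. The others lay over Snd1, Chn2, Asap2, Med27, Gse1 and Dab2ip. How the breaking up moves with sequencing depth was not tested.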
